A study of Mus musculus with 30 samples.

Results

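Occupancy of the insulator protein CTCF was compared with that of cohesin, through its subunit RAD21, in mouse neuroblastoma cells. The comparison used 8 of the 30 samples of the series, chosen by antibody: 4 CTCF and 4 RAD21 chromatin immunoprecipitation libraries. All came from NOS1+ N1E115 cells, a neuron-like mouse neuroblastoma line, grown for 3 days in air with 4% O2, labelled hypoxia, or 20% O2, labelled normoxia. Each antibody had 2 libraries (replicates 1 and 2) at each O2 level. Every CTCF list of peaks was paired with the RAD21 list of the same O2 level and replicate, which gave 4 pairs. Values for the libraries are given in the order 4% O2 replicate 1, 4% O2 replicate 2, 20% O2 replicate 1 and 20% O2 replicate 2. Nothing in the labels places the 2 libraries of a group in separate cultures, so p-values measure the spread between libraries, which may be technical.

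CTCF is a zinc-finger protein that binds a long DNA motif with a direction. Cohesin is a ring of SMC1A, SMC3, RAD21 and a STAG subunit. It is loaded elsewhere, moves along DNA while it extrudes a loop, and is held where it meets the amino-terminal side of bound CTCF. Sites with both proteins are therefore typical loop anchors, while cohesin without CTCF is known from active promoters and enhancers, where its loader NIPBL is found.

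The lists held 124797, 81759, 126873 and 73200 CTCF peaks, and 39012, 71225, 26908 and 73328 RAD21 peaks. Median peak width was 140, 262, 150 and 290 bp for CTCF and 346, 244, 322 and 253 bp for RAD21. The CTCF lists of replicate 1 were long with narrow peaks, and the RAD21 lists of replicate 1 were the shortest. An unexplained code stands in the file header of 1 CTCF list, that of 20% O2 replicate 1, and only its label ties it to its group. In replicate 1 the antibodies were run on different flow cells and set against different inputs, and in replicate 2 they shared a flow cell, a lane and an input, per the file headers. Within replicate 1, antibody and flow cell cannot be told apart, so values within each replicate are given beside the pooled ones.

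The DNA under the sites is shown first at promoters, since promoter sequence was at hand. CTCF's core was written as CCNNNAGNNGGC, where N is any base, and searched on both strands of the 300-base windows that RefSeq's GRCm38.p6 annotation (the build mm10) gives around gene starts, 250 bases before and 50 after. The windows below carry exactly 1 match to the stricter form CCNCNAGNNGGC, shown in capitals, ahead of the gene start. The first 4 had both proteins in all 8 lists and the highest mean score ranks of such windows. They belong to Nob1 (chr8:107425117-107425166, minus strand), an assembly factor of the small ribosomal subunit, Snrpe (chr1:133610416-133610465, minus), a core spliceosome protein, Slc36a1 (chr11:55204234-55204283, plus), a proton-coupled amino acid transporter, and Vps18 (chr2:119288644-119288693, plus), a subunit of endosomal tethering complexes. In Vps18 the core reads on the opposite strand.
Nob1: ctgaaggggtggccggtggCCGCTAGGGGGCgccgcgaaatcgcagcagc
Snrpe: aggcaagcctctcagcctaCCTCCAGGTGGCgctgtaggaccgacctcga
Slc36a1: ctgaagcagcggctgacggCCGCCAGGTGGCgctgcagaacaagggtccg
Vps18: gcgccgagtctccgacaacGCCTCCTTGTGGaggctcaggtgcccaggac

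The next 3 had CTCF in 4 lists and RAD21 in none, with the highest CTCF score ranks of such windows, and they show that a well-formed core also lay at promoters without a RAD21 peak. They belong to Paxbp1 (chr16:91044543-91044592, minus), an adaptor of PAX transcription factors, Wdr70 (chr15:8099257-8099306, minus), a WD-repeat protein, and Fam133b (chr5:3543747-3543796, plus). The 7 printed stretches of 50 bases overlap no annotated gene, and they were chosen after their values were seen.
Paxbp1: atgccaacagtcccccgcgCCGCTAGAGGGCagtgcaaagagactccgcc
Wdr70: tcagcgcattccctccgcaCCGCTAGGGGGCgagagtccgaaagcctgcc
Fam133b: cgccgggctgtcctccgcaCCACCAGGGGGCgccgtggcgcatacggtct

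A score rank is the percentile of a peak's deposited score within its own list, with 100 the strongest. At Nob1 the CTCF score ranks were 98.6, 99.7, 99.1 and 99.6, and the RAD21 ranks were 98.7, 99.6, 97.9 and 99.4. At Paxbp1 the CTCF ranks were 98.0, 96.1, 97.1 and 95.9, and at Wdr70 they were 97.8, 92.2, 98.5 and 95.8. CTCF at these last promoters thus ranked at 92.2 or above in its lists, and no RAD21 list had a peak there.

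Most RAD21 peaks lay on a CTCF peak, and a smaller share of CTCF peaks lay on a RAD21 peak. A peak was said to have a partner when it overlapped a peak of the paired list by at least 1 bp. Of CTCF peaks, 28.2, 54.0, 21.3 and 61.4% had a RAD21 partner (41.3% ± 19.4, SD, n = 4). Of RAD21 peaks, 82.0, 67.9, 96.7 and 67.8% had a CTCF partner (78.6% ± 13.8, n = 4). The groups did not overlap, and the difference of -37.3 percentage points had an exact permutation p = 0.0286 (two-sided, the smallest that 4 against 4 libraries allow; 0.0381 adjusted over 8 measures). With libraries paired by O2 level and replicate, the exact sign-flip permutation p was 0.12, the smallest that 4 pairs allow, here and for the other 5 measures with p = 0.0286 below. The difference was -64.5 points within replicate 1 and -10.1 points within replicate 2. Without the pair of 20% O2 replicate 1 it was -24.7 points.

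List length moved with this difference. In numbers of peaks, 35243, 44180, 27083 and 44937 CTCF peaks met 32003, 48351, 26007 and 49680 RAD21 peaks. The bases covered by both were 11.8, 19.6, 8.77 and 20.0 Mb, which is 33.7, 53.5, 24.3 and 56.9% of the CTCF bases and 66.2, 70.2, 85.7 and 70.9% of the RAD21 bases. With each list held to its 25000 highest scores, the shares were 79.6% for CTCF and 82.0% for RAD21, a difference of -2.31 points (exact permutation p = 0.543, n = 4 per antibody).

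The stronger a CTCF peak was in its list, the more often RAD21 was there. Peaks were ranked by score and divided into 5 equal classes. From the lowest to the highest class, the share of CTCF peaks with RAD21 went from 9.14 to 83.8%, from 23.0 to 98.5%, from 3.39 to 77.6% and from 25.6 to 99.6%. The gain was 74.6 ± 0.68 points (SD, n = 4) and lay between 73.9 and 75.5 in the 4 libraries, though they began at different levels. Among the 25000 strongest peaks per list the CTCF gain was 43.8 points, and against the partner's whole list it was 24.5. In replicate 1 the share stayed at or under 10.6% through the 3 lower classes, while in replicate 2 it was higher in each class than in the one before.

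RAD21 peaks reached a ceiling sooner. Their lowest class had a CTCF partner for 44.0, 38.5, 85.4 and 35.3% of peaks, and their highest class for 99.99, 99.87, 100 and 99.98%. In that class 1 of 7802, 19 of 14245, 0 of 5381 and 3 of 14665 RAD21 peaks lacked CTCF. The gain of 49.2 ± 23.3 points was smaller than for CTCF by 25.4 points (exact permutation p = 0.0286, adjusted 0.0381, n = 4). The difference was 39.1 points in replicate 1 and 11.7 in replicate 2. It is bounded by the lowest class, which in the shortest RAD21 list already had 85.4%. With 25000 peaks per list the difference was -5.595 points (exact permutation p = 0.2, n = 4), so that its direction turned when the lists had equal length. Without the pair of 20% O2 replicate 1 it was 14.0 points.

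**Figure D1:**
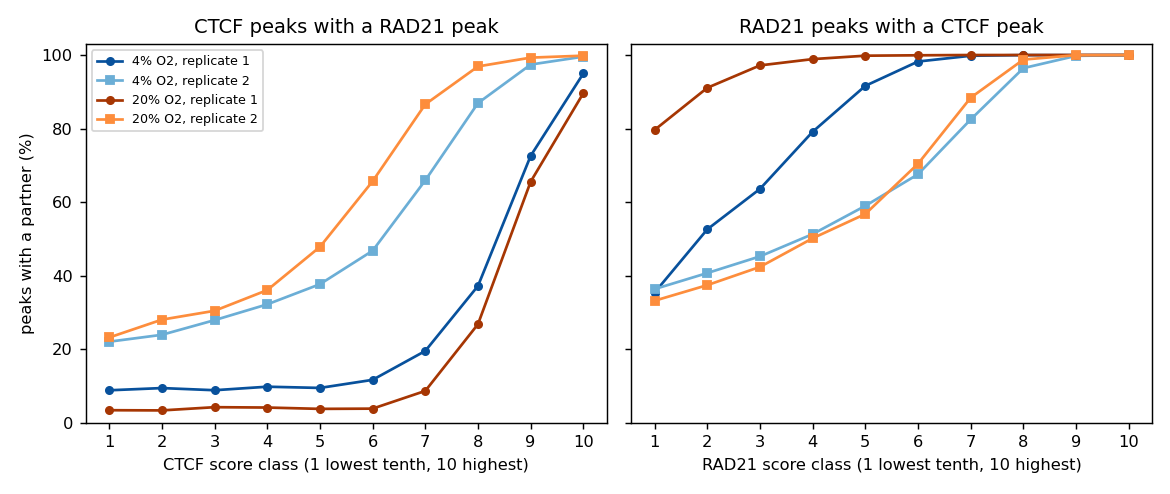
Share of peaks that overlap a peak of the other antibody (percent, vertical) by score class within each list, from 1 (lowest) to 10 (highest), for CTCF peaks on the left and RAD21 peaks on the right; each line is 1 library. CTCF lines of replicate 1 stay low over the lower classes and rise late, and every RAD21 line is close to 100% in the highest classes.

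Where both proteins had a peak, their strengths went together. Across merged regions with a peak in both lists of a pair, Spearman's rho between CTCF and RAD21 score ranks was 0.64 over 29331 regions, 0.85 over 36271, 0.52 over 23928 and 0.88 over 38974 (Pearson's r 0.59, 0.74, 0.50 and 0.80). Regions are not independent replicates. The pairs of replicate 2, with the higher values, shared a lane and an input, and the part of either in these values was not tested.

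Wide CTCF peaks had RAD21 more often than narrow ones. Median CTCF width was 406, 414, 534 and 456 bp with a RAD21 partner and 115, 184, 125 and 189 bp without. RAD21 peaks measured 382, 302, 328 and 318 bp with a CTCF partner and 237, 171, 192 and 174 bp without. From the narrowest to the widest of 5 width classes, the partner share rose by 67.8 ± 2.27 points for CTCF and by 34.5 ± 19.5 for RAD21, a difference of 33.2 points (exact permutation p = 0.0286, adjusted 0.0381, n = 4). It was 46.6 points in replicate 1, 19.8 in replicate 2 and -14.0 with 25000 peaks per list, where the CTCF gain was 21.3 points. A wide interval also has more bases with which to touch another, and width rose with score (Spearman's rho across peaks 0.66 to 0.83 in the 8 lists).

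With score held roughly equal, the relation with width was smaller and depended on which peaks were used. Within the 5 score classes, the widest of 3 width groups of CTCF peaks had RAD21 more often than the narrowest by 7.21, 10.9, 5.57 and 7.38 points. For RAD21 the differences were -12.3, 4.84, -0.58 and 0.36 points, with 2 libraries above 0 and 2 below. The antibodies differed by 9.68 points (exact permutation p = 0.0286, adjusted 0.0381, n = 4), 12.8 in replicate 1 and 6.54 in replicate 2, by 6.41 without the pair of 4% O2 replicate 1 and by -6.01 with 25000 peaks per list. The direction for CTCF itself turned with 25000 peaks: the mean was 7.77 points with all peaks, -4.38 with 25000 per list and -1.49 with 25000 against the partner's whole list. In the RAD21 list of 4% O2 replicate 1 the second score class stood apart: wide peaks there had CTCF less often than narrow ones, by -32.0 points.

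Place relative to genes gave no difference between the antibodies that passed the test. A gene end was the 1 kb to either side of an annotated start or end of a protein-coding gene. Gene ends held 10.2, 12.9, 8.77 and 11.7% of CTCF peaks and 12.5, 13.9, 10.9 and 12.5% of RAD21 peaks. At gene ends 33.9, 56.9, 24.4 and 62.8% of CTCF peaks had RAD21, against 29.2, 57.2, 22.9 and 64.3% outside genes and 26.3, 50.8, 19.4 and 58.5% inside them. For RAD21 peaks the shares with CTCF were 82.6, 67.5, 90.3 and 65.7% at gene ends, 80.4, 66.8, 97.4 and 67.2% outside genes and 83.5, 69.0, 97.4 and 68.9% inside. Gene ends minus outside gave 1.11 ± 2.74 points for CTCF and -1.44 ± 4.14 for RAD21 (difference 2.55, exact permutation p = 0.371, n = 4; 5.61 in replicate 1 and -0.52 in replicate 2). The CTCF value was -0.11 without the pair of 4% O2 replicate 1 and -7.63 with 25000 peaks per list. The RAD21 value was 0.47 without the pair of 20% O2 replicate 1, and the difference was then 0.49. Inside genes, CTCF peaks had RAD21 least often in each of the 4 libraries. The unpaired peaks of the shortest RAD21 list were the ones that lay at gene ends most often, 31.6% against 10.2% of its paired peaks.

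Chromosome X stood apart for RAD21. Its RAD21 peaks had CTCF in 95.0, 80.7, 98.4 and 81.9% of cases, above the whole range of the 19 autosomes in each library (73.7 to 87.2%, 59.8 to 72.0%, 94.9 to 98.2% and 60.8 to 72.1%). The CTCF peaks of X had RAD21 in 22.6, 53.0, 20.0 and 62.0% of cases. These lay inside the autosomal range in 3 libraries and under it, at 24.9 to 32.3%, in 4% O2 replicate 1.

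With all peaks used, CTCF and RAD21 peaks without a partner differed from paired ones in opposite directions in H3K9ac. H3K9ac, acetylation of histone H3 at lysine 9, marks active promoters and enhancers, and its own lists were paired by O2 level and replicate. Of CTCF peaks with RAD21, 35.4, 44.3, 31.2 and 36.9% overlapped an H3K9ac peak, against 9.99, 22.3, 10.6 and 17.1% of those without. Of RAD21 peaks with CTCF, 35.9, 42.5, 30.2 and 35.2% did so, against 73.9, 62.5, 57.2 and 60.0% of those without. The paired peaks of the antibodies overlap each other by definition, so their similar shares are not a separate result. Unpaired CTCF peaks were low and unpaired RAD21 peaks high in every library.

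The difference between peaks with and without a partner was 22.0 ± 2.51 points for CTCF, above 0 in 4 of 4 libraries, and -27.5 ± 7.65 for RAD21, below 0 in 4 of 4. Within an antibody the exact sign-flip permutation p was 0.12 for each, the smallest that 4 libraries allow. Between antibodies the difference was 49.4 points (exact permutation p = 0.0286, adjusted 0.0381, n = 4), 55.5 in replicate 1 and 43.3 in replicate 2. Asking only whether the central base of a peak lay in an H3K9ac peak, so that width did not count, gave 42.0 points, from 10.8 for CTCF and -31.1 for RAD21. The CTCF side was thus smaller than the 22.0 points by overlap. Leaving out peaks at gene ends gave 47.1 points (p = 0.0286 for both, exact permutation, n = 4).

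The size of this difference depended on the lists set against each other. With 25000 peaks in every list, the mean RAD21 difference between peaks with and without a CTCF peak of that shorter list was -1.27 points. The contrast was 13.6 points (exact permutation p = 0.0571, n = 4). Its sign turned in 20% O2 replicate 1, where 32.7% of paired and 24.9% of unpaired RAD21 peaks were acetylated. The other RAD21 lists had 35.9 and 43.4%, 48.4 and 53.2%, and 40.7 and 41.4%. When the 25000 strongest peaks were set against the whole list of the partner, the contrast was 47.9 points (p = 0.0286, exact permutation). Then 650, 757, 460 and 285 RAD21 peaks were unpaired, and 78.0, 80.3, 58.3 and 86.0% of them were acetylated, against 36.6, 48.2, 30.5 and 40.3% of the paired ones. By score class, RAD21 peaks with CTCF were less often acetylated than those without in 13 of 13 classes that held at least 50 unpaired peaks. CTCF peaks with RAD21 were more often acetylated in 17 of 20 classes. The other 3 were strong classes of replicate 2, where few CTCF peaks lacked RAD21: in the highest classes 66.9% of 248 and 72.3% of 65 such peaks were acetylated, against 56.0 and 50.8% of those with RAD21.

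RNA polymerase II lay in the same way with RAD21. Islands of POLR2, its largest subunit, were overlapped by 33.9, 41.4, 11.2 and 37.8% of RAD21 peaks with CTCF and by 52.0, 50.8, 33.2 and 55.2% of those without. For CTCF the shares were 33.7, 40.4, 11.1 and 37.3% with RAD21 and 22.2, 39.6, 9.93 and 33.1% without. The low values of 20% O2 replicate 1 went with the shortest POLR2 list. The difference by partner was -16.7 ± 5.25 points for RAD21 and 4.43 ± 4.99 for CTCF, which differ by 21.1 points (exact permutation p = 0.0286, adjusted 0.0381, n = 4). Within the replicates it was 26.3 and 15.9 points. The CTCF value was led by 4% O2 replicate 1: without that pair it was 2.06, and it turned to -3.25 with 25000 peaks per list and to -6.15 with 25000 against the partner's whole list. With 25000 peaks per list the difference between the antibodies was -0.11 points, and the call was lost.

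**Figure D2:**
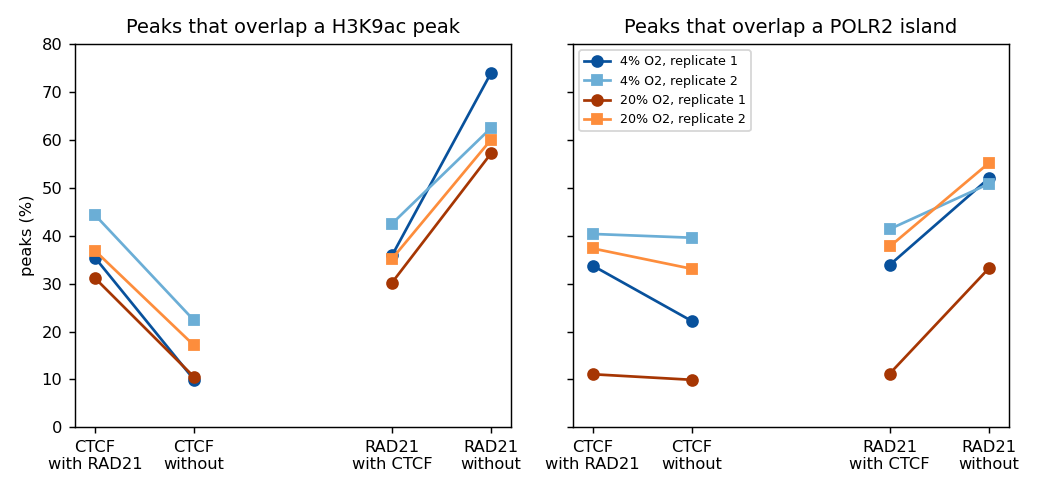
Share of peaks that overlap an H3K9ac peak (left) or a POLR2 island (right), in percent, for peaks with and without a partner; each joined pair of points is 1 library. For H3K9ac the CTCF lines fall and the RAD21 lines rise from paired to unpaired peaks, and the unpaired RAD21 peaks lie between 57.2 and 73.9%.

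Unpaired peaks were found again less evenly than paired ones. Within score classes, RAD21 peaks with CTCF were found in the other replicate of the same O2 level more often than those without, by 33.3, 22.3, 6.80 and 35.3 points. These are means in which every class with any unpaired peak counted equally. The highest RAD21 class held only 1, 19, 0 and 3 unpaired peaks, so single peaks can weigh heavily there. For CTCF the differences were 41.3 and 42.7 points in replicate 1 and -1.35 and -6.75 points in replicate 2. CTCF minus RAD21 was -5.45 points over the 4 pairs (exact permutation p = 0.743, n = 4), which averages opposite differences of 21.9 points in replicate 1 and -32.9 in replicate 2. It was -18.7 points with 25000 peaks per list (p = 0.286) and -40.4 with 25000 against the partner's whole list (p = 0.0571, exact permutation, n = 4). Without regard to score, 93.6, 82.5, 98.1 and 86.8% of paired CTCF peaks were found again, against 36.7, 55.7, 41.8 and 67.6% of unpaired ones. Of unpaired RAD21 peaks 62.2, 20.6, 77.1 and 1.93% were found again; the last value belongs to the longest RAD21 list, set against the shortest.

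Merging the peaks of the 8 lists into 168589 regions showed that steady RAD21 sites were nearly always steady CTCF sites. A region counted for a list when any of its peaks lay in it. Of 20758 regions with RAD21 in 4 lists, 98.3% had CTCF in 4. Of 39734 regions with CTCF in 4 lists, 51.3% had RAD21 in 4 and 86.5% in at least 1. In all, 20399 regions were in all 8 lists, 5345 had CTCF in 4 lists and RAD21 in none, and 84 had RAD21 in 4 and CTCF in none. Of the 27387 regions with RAD21 and no CTCF, 20209 (73.8%) rested on a single list, 9697 and 9049 of them on the lists of replicate 2. The RAD21-only count rested on the shortest RAD21 list: without the pair of 20% O2 replicate 1, 1966 regions had RAD21 in the other 3 lists and no CTCF, and 88.4% of regions with RAD21 in 3 lists had CTCF in 3. Without any other single pair there were 100 to 122. CTCF-only regions numbered 11360 and 10562 without the pairs of replicate 2 at 4% and 20% O2.

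**Figure D3:**
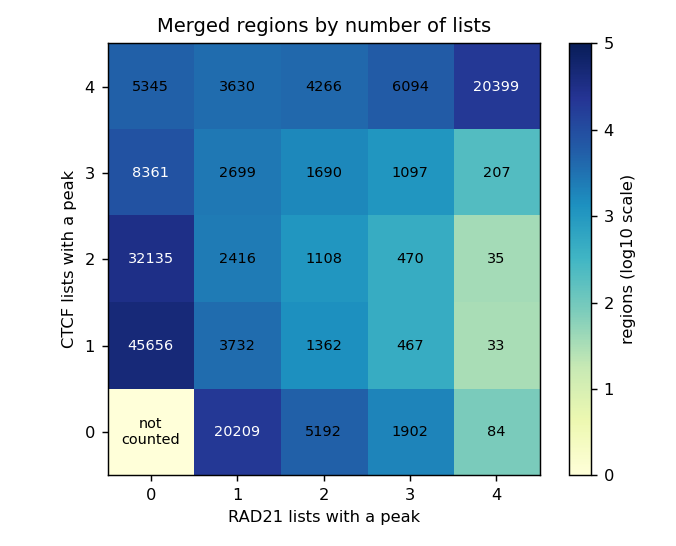
Number of merged regions by how many CTCF lists (vertical, 0 to 4) and how many RAD21 lists (horizontal, 0 to 4) have a peak in them; colour is the count on a log10 scale. The corner with both proteins in all lists holds 20399 regions, and the opposite corners hold 5345 with CTCF alone and 84 with RAD21 alone.

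In H3K9ac the classes differed as the single lists did, while in POLR2 the CTCF-only regions did not. Of the 84 RAD21-only regions 45.2% were centred at a gene end and 96.4 to 98.8% met an H3K9ac peak, depending on the library. Without the pair of 20% O2 replicate 1 the RAD21-only regions numbered 1966, of which 10.9% lay at a gene end and 87.8 to 90.7% met H3K9ac, so the share at gene ends rested on that pair and the acetylation did not. Of the regions in all 8 lists 11.04% lay at a gene end and 36.5 to 43.7% met H3K9ac. The CTCF-only regions had 12.3% at gene ends and 16.2 to 22.8% with H3K9ac. The median widths of these classes were 853.5, 1342 and 438 bp. By the central base of a region alone, the shares with H3K9ac were lower. They were 61.9 to 78.6% for RAD21-only regions, 18.5 to 25.1% for those in all 8 lists and 9.56 to 15.9% for CTCF-only regions. A POLR2 island was met by 33.6, 43.3, 17.3 and 41.3% of CTCF-only regions. For regions in all 8 lists the POLR2 shares were lower in each library, at 29.3, 32.8, 12.996 and 35.002%. In the single lists CTCF peaks without RAD21 had the lower POLR2 share. RAD21-only regions had the highest POLR2 shares, 75, 80.95, 47.6 and 83.3%, as unpaired RAD21 peaks did. The reason for the reversed CTCF order was not tested. The RAD21 score ranks of the RAD21-only regions were low, with medians of 26.9, 49.7, 9.10 and 55.7, against 72.9, 84.7, 60.7 and 85.5 in the regions in all lists. CTCF-only regions had median CTCF ranks of 68.1, 47.5, 67.9 and 42.6, against 90.5, 86.2, 90.5 and 84.9.

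The strongest shared regions, chromosome 18 left out, lay outside protein-coding genes. They were 5195 bp from Nfkbia, which encodes the NF-kappaB inhibitor IκBα (chr12:55497842-55500239), 37582 bp from Blcap (chr2:157603943-157607640), 7195 bp from Dipk1b (chr2:26643692-26647956) and 6789 bp from Enah, an actin regulator (chr1:181887652-181889595). Their ranks were at least 98.9 in every list, and each met H3K9ac in 4 of 4 libraries. Strong CTCF-only regions lay at Cnih1, a cargo receptor of the secretory pathway (chr14:46788214-46789897), and at Paxbp1 and Fam133b, whose windows are printed above. Their mean CTCF ranks were 97.4, 96.7 and 96.0. These 3 regions met H3K9ac in every library, unlike most regions of that class. At the printed Paxbp1 sequence itself H3K9ac was absent in replicate 1 at both O2 levels.

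The strongest RAD21-only regions were weaker. One lay 411754 bp from Myc, the nearest protein-coding gene (chr15:62402115-62404725), with RAD21 ranks of 66.8, 74.9, 27.8 and 77.6. One lay at an end of Ssbp2, a single-stranded DNA binding protein of LIM-domain complexes (chr13:91460015-91461203), with ranks of 30.2, 73.0, 52.7 and 70.3. One was at Trps1, a GATA-type repressor (chr15:50889903-50890948), and one 181421 bp from Enc1, an actin-binding protein of neurons (chr13:97434461-97437296), with mean ranks of 50.2 and 49.8. H3K9ac was present at these 4 in 4 of 4 libraries. POLR2 was absent from the Myc and Trps1 regions in all 4.

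At gene ends both proteins were in all lists for 2361 of 21887 protein-coding genes, or 10.8%. A gene counted for a list when a peak lay at either of its ends. The CTCF and RAD21 peaks of such a gene need not overlap or lie at the same end, here and in the gene lists below. CTCF in 4 lists and RAD21 in none was found at 567 genes, or 2.59%, and RAD21 in 4 and CTCF in none at 33 genes, or 0.151%. Without the pair of 20% O2 replicate 1 there were 151 genes of the last kind and without that of 4% O2 replicate 1 there were 51, and without the pairs of replicate 2 the CTCF-only genes numbered 1034 and 1031. The gene lists below are read against these shares, and none was tested. Both proteins were in all lists at 5 of 22 genes for CTCF, cohesin and its regulators, 3 of 39 Hox genes, 5 of 37 imprinted genes, 0 of 4 protein-coding genes of the X inactivation centre and 6 of 21 neuroblastoma and sympathetic transcription factors. The counts were 3 of 36 neuronal genes, 7 of 25 immediate early genes and 6 of 30 genes of the mitochondrial respiratory chain. Hox and neuronal genes were thus near or under 10.8%, while the immediate early genes (28%) and the neuroblastoma factors (28.6%) were the furthest above.

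Among the machinery itself both proteins lay at Pds5b, a cohesin regulator that aids release and arrest at CTCF, at Smc3 and at Ctcf. Pds5b (chr5:150673381-150675614) had CTCF ranks of 90.1, 97.8, 93.8 and 98.6 and RAD21 ranks of 95.2, 99.3, 99.1 and 98.9. Smc3 (chr19:53599301-53600534) had 94.0, 98.4, 97.4 and 98.4 for CTCF and 92.6, 95.0, 75.8 and 97.5 for RAD21. Ctcf itself (chr8:105636330-105638147) had mean ranks of 89.7 and 82.7. Pds5a and Stag2 completed the 5. Smc1a had CTCF in 4 lists and RAD21 in none, with a mean CTCF rank of 68.0, and Rad21 had neither protein at a gene end in any list; both were picked out after their values were seen.

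Hox clusters are divided into domains by CTCF sites between their genes. Hoxc10 (chr15:102965586-102967441) was close to the top of every list, with CTCF ranks of 98.3, 99.4, 98.2 and 99.8 and RAD21 ranks of 99.95, 99.78, 99.86 and 99.94. Hoxc5 had mean ranks of 87.5 for CTCF and 89.0 for RAD21, and Hoxb8 of 81.2 and 82.9. In a window of 5 kb 14 of 39 Hox genes had both proteins in all lists, where 30.6% of protein-coding genes did.

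At imprinted genes, CTCF can bind the unmethylated allele alone. Magel2, a maternally silenced gene of the Prader-Willi region, had mean ranks of 89.4 for CTCF and 88.7 for RAD21. Peg13, a non-coding RNA, had 92.6 and 77.0, but no merged region with both proteins in all lists was assigned to it. At H13, a signal peptide peptidase (chr2:152668791-152669714), the highest ranks at either gene end parted. CTCF ranked at 99.9, 99.6, 99.7 and 98.2 and RAD21 at 44.4, 74.95, 30.5 and 71.8. H13 thus had CTCF near the top of its lists in all 4 libraries, and a RAD21 peak of middle rank, not necessarily at the same end. The non-coding RNA gene Ftx of the X inactivation centre had mean ranks of 49.2 and 58.5.

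Of the neuroblastoma factors, Sox11 (mean ranks 75.8 and 82.3), Meis1 (58.4 and 66.7) and Myc (75.5 and 63.5) had both proteins in all lists. At Myc the highest RAD21 ranks at either gene end were 13.2, 86.7, 61.7 and 92.2. No merged region with both proteins in all lists was assigned to Myc, so a shared site is not shown there. Mycn had RAD21 in 4 lists, at a mean rank of 80.6, and CTCF in 3. Sox4, a transcription factor of sympathetic neuron precursors, had RAD21 in 4 lists and CTCF in none, at a mean rank of 40.5. Among neuronal genes the microtubule protein Map1b did the same, at 69.8. Mycn, Sox4 and Map1b were picked out after their values were seen. The 33 genes of that class also include transcriptional regulators such as Sox9, Zeb2, Foxo3, Foxn3 and Tle4, likewise named after the fact. The share of regulators among the 33, or among all genes, was not counted.

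Neuronal genes with both proteins were Nefh, the heavy neurofilament (79.7 and 80.5), Tubb3, a neuronal tubulin (89.3 and 65.5), and Elavl4, a neuronal RNA-binding protein. At Elavl4 (chr4:110351511-110352573) the highest CTCF ranks at either gene end were 95.0, 85.0, 93.6 and 79.1. Those of RAD21 were 49.98, 2.96, 27.4 and 56.2. RAD21 thus ranked below CTCF in every library, though the peaks need not lie at the same end. Among immediate early genes, Jund, an AP-1 subunit, had mean ranks of 91.6 and 92.3, Dusp1, a MAP kinase phosphatase, 96.3 and 84.8, and Klf4 78.7 and 82.8. Of respiratory chain genes, Uqcrc1 of complex III had 97.0 and 86.3, Atp5d of ATP synthase 96.1 and 86.5, and Cox5a of complex IV 92.4 and 82.7. At Uqcrc1 and Cox5a the lowest rank was that of RAD21 at 20% O2 replicate 1, 59.8 and 58.4.

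The CTCF core was most common at promoters with both proteins. It was found in 34.0% of 1137 windows with both in all lists, in 16.8% of 392 with CTCF in 4 and RAD21 in none, in 7.14% of 42 with RAD21 in 4 and CTCF in none and in 5.596% of 24267 with neither. Of all 32851 windows 8.61% held it. The stricter form gave 17.1, 8.16, 2.38 and 1.11%, and 2.44% overall. Pair by pair, windows with both held the core in 29.0, 23.2, 33.3 and 25.4% of cases, those with CTCF alone in 17.3, 14.9, 19.3 and 13.6%, those with RAD21 alone in 9.02, 10.96, 10.7 and 11.1% and those with neither in 6.10, 6.16, 6.43 and 6.28%. The order was the same in all 4 pairs. A match is a description of the letters and not evidence of binding. Windows share gene starts, and peaks outside promoters were not searched.

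**Figure D4:**
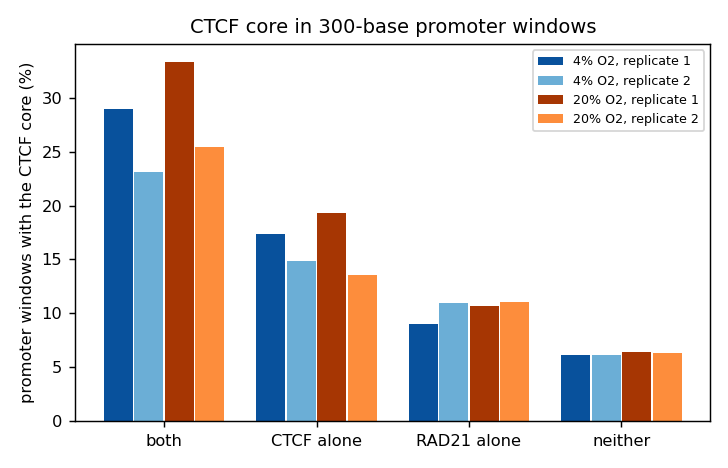
Share of 300-base promoter windows with the CTCF core (percent, vertical) by which protein had a peak there in a pair of lists (horizontal); each bar is 1 pair. Bars fall from both proteins (23.2 to 33.3%) through CTCF alone and RAD21 alone to neither (6.10 to 6.43%).

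Within shared peaks the RAD21 summit lay close to the CTCF summit, and closer the stronger the peak. Summits were deposited for replicate 2. The median distance from a CTCF summit to the nearest RAD21 summit was 27 bp over 44180 peaks at 4% O2 and 20 bp over 44937 at 20% O2, and 67.6 and 77.4% lay within 50 bp. From the lowest to the highest of 5 CTCF score classes the median went from 98 to 15 bp at 4% O2 and from 99 to 13 bp at 20% O2.

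The RAD21 summits leaned to one side of the core. At promoter windows with exactly 1 stricter core and both summits, read along the core from CCNCN to GGC, the CTCF summit lay at a median of 5.5 bp and the RAD21 summit at 14.5 bp beyond the core's centre, at both O2 levels (277 cores each). RAD21 lay on the 3′ side of the CTCF summit at 62.8% of cores at 4% O2 and 63.2% at 20% O2, and on the 5′ side at 35.7 and 35.0%. The median shift was 6 and 7 bp. Where the core ran with the gene the medians were 8.5 and 10.5 bp for CTCF and 19.5 and 16.5 bp for RAD21. Where it ran against the gene the CTCF summit lay on the other side of the centre, at -2.5 and -4.5 bp, and RAD21 at 5.5 bp at both levels. The 3′ share was 66.7 and 63.6% where the core ran with the gene and 57.1 and 62.6% where it ran against it, above the 5′ share in both orientations. The cores are shared between the 2 levels, there is 1 library per antibody and level, and no test was made.

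**Figure D5:**
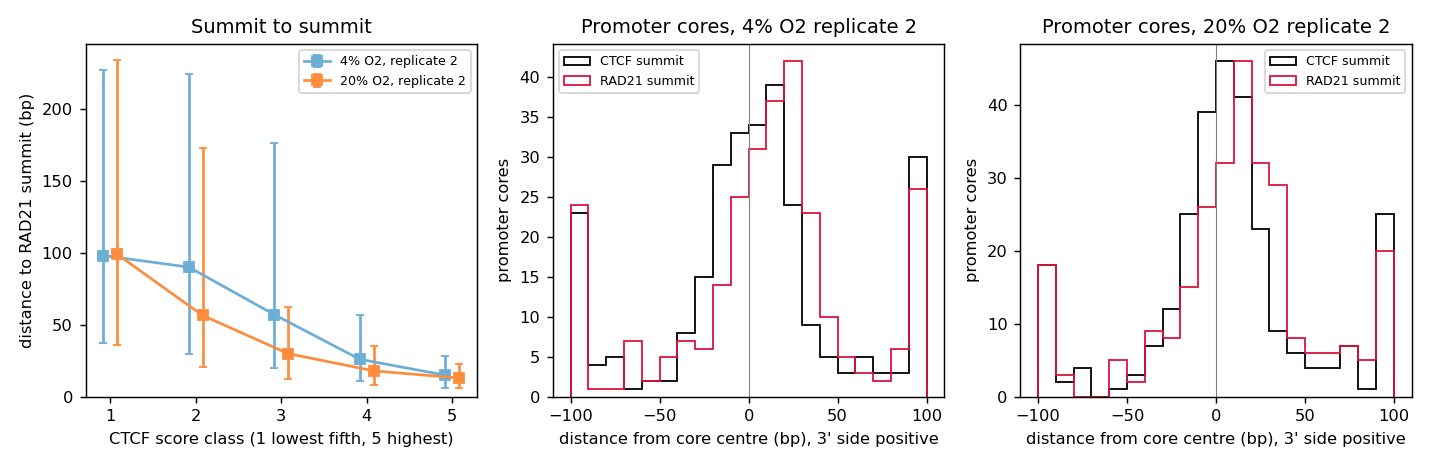
Left, distance from CTCF to RAD21 summits (bp; points are medians, bars the quartiles) by CTCF score class (1 lowest, 5 highest) in the replicate 2 lists. Middle and right, number of promoter cores by the distance of the CTCF (black) and RAD21 (red) summit from the core's centre (bp, 3′ side positive, values beyond the axis placed in the outer bins); the RAD21 counts sit to the right of the CTCF counts at both O2 levels, with medians of 14.5 and 5.5 bp.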

How the data were processed

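Lists came from chromatin immunoprecipitation libraries, with mm10, BWA, Picard, SICER and MACS2 named per the submitters' processing notes. Versions, settings and read depth: not given in the sources used here. MACS2 called peaks of CTCF, RAD21 and H3K9ac and SICER called POLR2 islands, per library against an input, per the file headers. Judged from its values, the unnamed score in the deposited MACS2 lists is −log10 of a q-value, and in the deposited SICER lists a count of reads per island. Peak scores were compared within 1 list at a time, as ranks or a minimum.

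For replicate 2 of CTCF, RAD21 and H3K9ac the deposited list under the sample's own label holds summits, and a list with equal scores and enclosing intervals, filed with replicate 1, was taken as its peaks; the POLR2 lists hold islands. The replicate numbers share flow cells as described in the results. Chromosomes 1 to 19, X and Y were kept, which dropped 37 peaks. Python 3.11.15, numpy 2.4.6 and pandas 2.3.3 were used, and scripts were tested on simulated data. Measures per library were compared with a two-sided exact permutation test, with Benjamini-Hochberg adjustment over 8 measures; 21887 protein-coding genes of GRCm38.p6 gave the gene ends.

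Alternatives were another overlap, a score minimum, equal list lengths, other partners, other windows and left-out libraries. The libraries and gene lists were chosen with earlier results of these data known. Named genes are the 3 of each list with the highest mean rank among those with both proteins in all 8 lists, and the 4 strongest regions of each of 3 classes, of which 1 is not reported here. Motif windows and the named strongest regions exclude chromosome 18, which was not used for either.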

Additional observations from a re-analysis of the deposited data

Results flagged for a closer look

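Beside the partner share itself, 5 effects within a list differed between the CTCF and RAD21 libraries by an exact permutation test of the difference (p = 0.0286 each, the smallest possible with n = 4 per antibody). The gain in partner share from the lowest to the highest score class was larger for CTCF by 25.4 points, and that from the narrowest to the widest class by 33.2 points. Within score classes the gain with width was larger by 9.68 points. The difference in H3K9ac overlap between paired and unpaired peaks was higher for CTCF by 49.4 points, with 4 of 4 CTCF libraries above 0 and 4 of 4 RAD21 libraries below it. For POLR2 the same difference was 21.1 points. No library passed the outlier cut-off against the other 3 of its antibody in the 32 groups of values checked. Chance would flag about 1 in 20 such groups. The RAD21 gain with score was nonetheless 14.6 points in 20% O2 replicate 1, against 56.0, 61.3 and 64.7 in the other RAD21 lists.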

How the results depend on the processing

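Differences are CTCF minus RAD21 in percentage points. With 25000 peaks per list the partner share gave -2.31 and H3K9ac 13.6, and score (-5.595), width (-14.0), width within score classes (-6.01), place (-5.98) and POLR2 (-0.106) reversed. With 25000 peaks against the partner's whole list, chosen after seeing the data, the partner share gave -9.37, score 15.5, width 8.79, width within score 0.54 and POLR2 14.9, none past 0.05, and place turned to -2.91. Partners from the other replicate gave 25.3 for score, close to the main 25.4 but no longer past 0.05 (exact permutation p = 0.114). Partners from the other O2 level, added later, gave 8.57 for width within score (exact permutation p = 0.0571). An overlap of 50% of the shorter peak turned the repeat share to 2.31, and the 5 kb window turned place to -9.64 and raised 2361 genes to 6700. The stricter core gave 17.1% in place of 34.0%. The cause of these changes was not tested.

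With the replicate block, pairing lists of the same O2 level and replicate, the differences were the same (-37.3, 25.4, 33.2, 9.68, 49.4 and 21.1) and the exact sign-flip p was 0.12, the smallest 4 pairs allow. Leaving out each pair in turn gave -47.6 to -24.7 for partner share, 14.0 to 30.8 for score, 25.6 to 37.9 for width, 6.41 to 10.9 for width within score, 44.7 to 51.9 for H3K9ac, 18.3 to 24.8 for POLR2, 0.49 to 3.75 for place and -19.2 to 6.76 for the repeat share (0.60 without 4% O2 replicate 2). The smallest p with 3 against 3 is 0.1. The pair of 20% O2 replicate 1 gave the values of -24.7 and 14.0, and that of 4% O2 replicate 1 the 6.41, each over 1.5 times smaller than with all 4 pairs. List length, not read depth, was the limit that could be measured.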
